A study of Mus musculus with 6 samples.

Results

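Laminins and nidogens are secreted glycoproteins of the basement membrane, the thin sheet of matrix that surrounds muscle cells and underlies epithelium and endothelium. The 10 genes described here were chosen by symbol, as the chains of the main laminins and both nidogens, from the 53460 genes of the series: 5 alpha chains (Lama1 to Lama5), 2 beta chains (Lamb1, Lamb2), the gamma1 chain (Lamc1) and 2 nidogens (Nid1, Nid2). The rule uses no measured value. RNA was measured in cardiac mesenchymal cells, stromal cells grown from the heart, from the slowly adherent fraction that attaches late to culture plastic. They came from C57BL6/J mice given as male, 28 days after surgery. The 3 infarct libraries came from hearts that had 60 min of ischemia followed by reperfusion, and the 3 sham libraries from hearts that had a thoracotomy without infarction. Both groups therefore shared the opening of the chest, the strain and the culture step, and the comparison asks how the cells' RNA differed with the state of the heart. Sex-linked genes also differed between the groups, as given below. The state of the heart and the source of the cells therefore cannot be told apart for any gene. Nothing in the labels ties each library to its own mouse or culture dish, so the p-values rest on the spread among these libraries, which may be technical.

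A laminin is a cross-shaped trimer of an alpha, a beta and a gamma chain. The arms join into a network, and the globular end of the alpha chain binds integrins and dystroglycan on the cell surface. Nidogens bind the gamma1 chain and collagen IV and so link both networks. In the heart, alpha2 laminin surrounds the cardiomyocyte, and alpha4 and alpha5 laminins are chains of the vessel wall.

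The deposited values are FPKM, fragment numbers scaled to the length of the transcript and the size of the library, so levels can be compared between genes per length. The table holds no counts. The spacing of its lowest values implied 21.9 to 30.4 M fragments per library, and 12543 to 12699 genes reached 1 FPKM. Of the 12720 genes that reached 1 FPKM in 3 or more libraries, limma called 3 at an adjusted p under 0.05, of which 2 were higher and 1 was lower in infarct libraries, and 456 had an unadjusted p under 0.05. Endothelial markers stood lower in infarct libraries, with summed levels of 146.5 to 582 FPKM in sham and 41.9 to 53.7 FPKM in infarct libraries. The sex-linked genes went against the label of male mice. Xist, made from an inactive X chromosome, stood at 102.3 to 110.9 FPKM in sham and 63.1 to 89.85 FPKM in infarct libraries. Its groups thus did not overlap. Over all tested genes, 4.1% were separated in that direction. The Y-linked Eif2s3y stood at 0.130 to 0.225 FPKM in sham libraries and at 10.6 FPKM in infarct library 1, 0.804 in infarct library 2 and 2.27 in infarct library 3. The infarct library numbers are those of the table's columns, which could not be tied to single samples.

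Nid1 was the most abundant of the 10 genes, and the order of mean levels went on through Lamb1, Lamc1, Lama4, Lamb2, Lama2, Nid2, Lama5 and Lama1 to Lama3. Each gene in this order stood above the next in 6 of 6 libraries, except that Lamb2 was above Lama2 in 5 of 6. Lamb2 and Lama2 are thus the neighbours that could not be ordered in every library. The ratio of neighbouring means was lowest for Lamb2 over Lama2, at 1.17, and highest for Lama1 over Lama3, at 15.0. The abundant laminin chains were thus alpha4, alpha2, beta1, beta2 and gamma1, and alpha5, alpha1 and alpha3 were far below them.

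**Figure D1:**
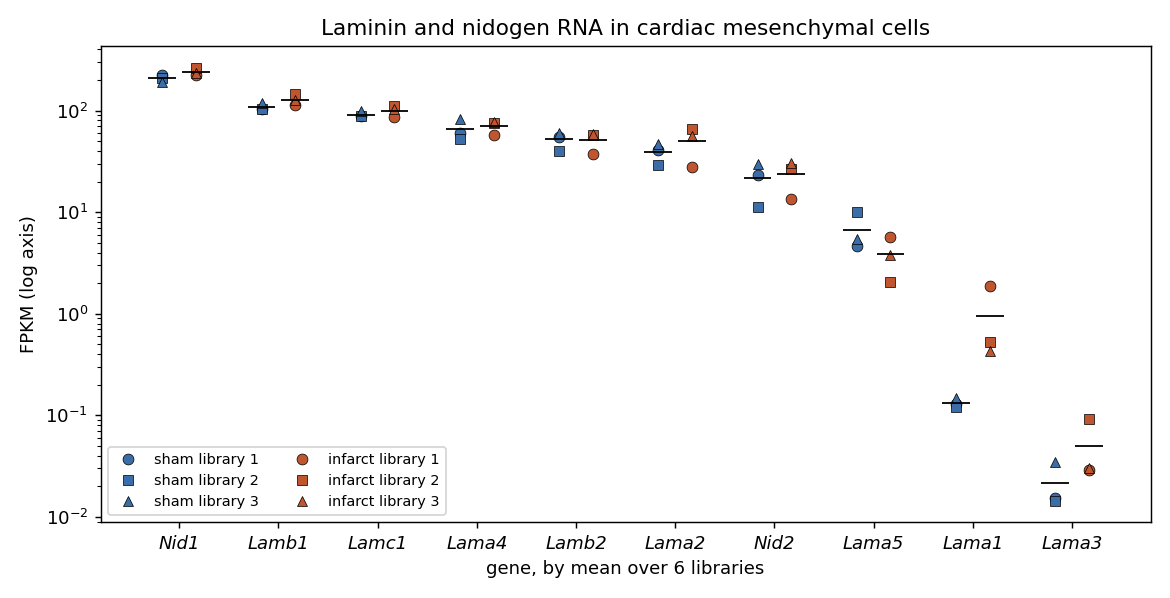
Level of each of the 10 genes (FPKM, log axis) in the 3 sham and 3 infarct libraries, with a point for each library and a bar at the group mean. Nid1 is highest and its groups do not overlap, Lama1 is below 0.15 FPKM in every sham library and between 0.434 and 1.87 FPKM in infarct libraries, and the groups of the other 8 genes overlap.

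Of the 10 genes, 8 passed the filter on low values, and Lama1 and Lama3 did not. By limma, 0 of the 8 were higher and 0 were lower in infarct libraries at an adjusted p under 0.05, where the background over all tested genes was 0.0157% higher and 0.00786% lower. None of the 8 reached an unadjusted p under 0.05. Their changes, infarct minus sham on the log2(FPKM + 1) scale, were positive in 6 and negative in 2, with a median of 0.14 beside 0.02 over all tested genes. The authors' deposited table tested 9 of the 10 genes and marked Lama1 as higher and Lama5 as lower in infarct cells. Its background was 0.469% of 14922 genes higher, 1.19% lower and 1.66% in either direction.

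Among the alpha chains, Lama4 was the most abundant. It encodes the alpha4 chain, which lacks the long amino-terminal arm of the other alpha chains: its annotated coding length is 5448 nt, beside 9249 nt to 11154 nt for the others. Lama4 stood at 59.8, 53.0 and 82.9 FPKM in sham libraries 1, 2 and 3 and at 58.0, 76.1 and 77.8 FPKM in infarct libraries 1, 2 and 3. The groups overlapped, with sham library 3 the highest and sham library 2 the lowest. Group means were 65.2 ± 15.6 and 70.6 ± 11.0 FPKM (SD, n = 3 each), and the log2 change was 0.13 (SE 0.19; limma adjusted p = 1).

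Lama2, which encodes the alpha2 chain of muscle laminin and is mutated in a congenital muscular dystrophy, varied more. Its levels were 41.1, 29.1 and 46.6 FPKM in sham and 27.9, 65.4 and 56.8 FPKM in infarct libraries. Infarct libraries 2 and 3 were above all sham libraries, and infarct library 1 was below all of them. The means of 39.0 ± 8.93 and 50.05 ± 19.6 FPKM (SD, n = 3 each) therefore overlapped, with a log2 change of 0.29 (SE 0.33; limma adjusted p = 1). That change was 0.66 without infarct library 1 (limma unadjusted p 0.0191, adjusted p = 0.9997), 0.06 without infarct library 2, 0.16 without infarct library 3 and 0.10 without sham library 2.

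Lama5 encodes the alpha5 chain, the largest of the 5, which is found in epithelial and endothelial basement membranes. It lies on chromosome 2 (GRCm38, 180176373 to 180225859, minus strand). Its levels were 4.61, 9.93 and 5.39 FPKM in sham and 5.72, 2.06 and 3.81 FPKM in infarct libraries. Sham library 2 was the highest, and infarct library 1 was above sham libraries 1 and 3, so the groups overlapped. Group means were 6.64 ± 2.88 for sham and 3.86 ± 1.83 FPKM for infarct (SD, n = 3 each), 1.72-fold higher in sham. Without sham library 2 that ratio was 1.29, and without infarct library 2 it was 1.39. The log2 change was -0.66 (SE 0.35) and an unadjusted p of 0.101 (limma adjusted p = 1).

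The authors' deposited table gives Lama5 a group level of 6.81 FPKM in sham and 3.96 FPKM in infarct cells, with a q-value of 0.0282 and the mark of a significant difference. Both tests thus saw a lower mean and differed in the call. Endothelial markers were lower in the same direction: 17 of 20 were tested, all 17 changes were negative, with a median of -2.76, and limma called 1 of them, Mmrn2 (adjusted p = 0.0329), a call lost in 5 of the 6 fits that leave out 1 library. Tek, Tie1, Vwf, Robo4, Mmrn2, Sox18 and Erg were under 1 FPKM in every infarct library. They passed the filter only through their sham libraries, so a lower infarct level was fixed in advance for them. Of the 17, 16 had an unadjusted p under 0.05 by limma, beside 456 of all 12720 tested genes. Also, 16 had all infarct below all sham libraries, beside 4.1% of all tested genes. The authors' deposited table marks 15 of the 19 endothelial markers it tested as lower, beside 1.19% of all genes it tested. Pecam1, an endothelial junction protein, stood at 10.5, 56.3 and 34.5 FPKM in sham and 2.52, 0.150 and 0.515 FPKM in infarct libraries. Within each group the summed endothelial level and Lama5 had the same order of libraries, highest in sham library 2 and infarct library 1 and lowest in sham library 1 and infarct library 2. Across groups the order differed, since infarct library 1, at 53.7 FPKM of summed endothelial markers, was below every sham library and its Lama5 level was above sham libraries 1 and 3. The part of endothelial RNA in the Lama5 difference was not tested, and in bulk samples fewer cells of a type and less RNA per cell cannot be told apart.

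Lama1 encodes the alpha1 chain, known from early embryonic basement membranes and from a few adult epithelia. It lies on chromosome 17 (GRCm38, 67697259 to 67822647, plus strand). It stood at 0.130, 0.120 and 0.149 FPKM in sham and at 1.87, 0.525 and 0.434 FPKM in infarct libraries. All 3 infarct libraries were above all 3 sham libraries, and infarct library 1 was far above the other two. The exact two-sided permutation test gave p = 0.1, the smallest that 3 against 3 allows. At the implied depths these levels stood for about 28.7 to 42.4 fragments per sham library and 99.8 to 444 per infarct library. The 95% Poisson limits, which cover counting error only, reached at most 0.202 FPKM in sham and started at 0.353 FPKM or more in infarct libraries.

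The group means of Lama1 were 0.133 ± 0.0148 and 0.942 ± 0.801 FPKM (SD, n = 3 each), a 7.06-fold ratio that was 3.60-fold without infarct library 1. Lama1 was below the filter, so the main limma fit gave it no test. With no filter its unadjusted p was 0.0391 and its adjusted p was 1 by limma. With no filter and a pseudocount of 0.1 FPKM, chosen after seeing the data, limma gave an adjusted p of 0.803. In the authors' deposited table Lama1 is marked as significantly higher in infarct cells, at 0.137 against 0.966 FPKM with a q-value of 0.00178. The Y-linked genes Eif2s3y, Ddx3y, Uty and Kdm5d were also highest in infarct library 1 and higher in all infarct than in all sham libraries. Whether the source of the cells in infarct library 1 bears on its Lama1 level was not tested.

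**Figure D2:**
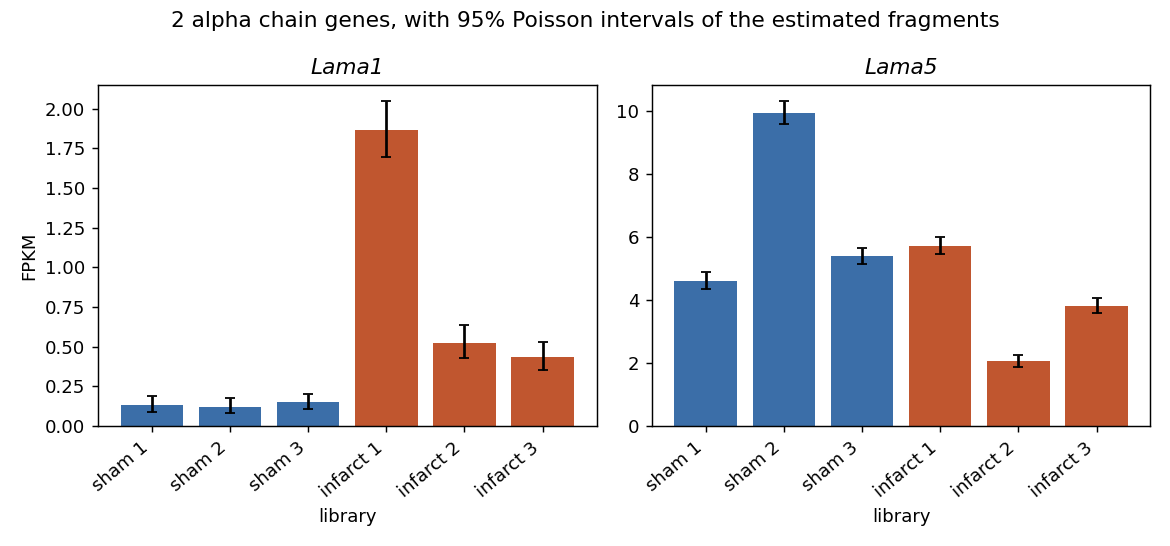
Levels of Lama1 and Lama5 (FPKM) as a bar for each of the 6 libraries, with the 95% Poisson interval of the estimated fragments as an error bar, which covers counting error only. Lama1 is highest in infarct library 1 at 1.87 FPKM, and Lama5 is highest in sham library 2 at 9.93 FPKM and lowest in infarct library 2 at 2.06 FPKM.

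Lama3, the alpha chain of the laminin that anchors skin epithelium, was the lowest of the 10 genes. Its highest value was 0.0916 FPKM, in infarct library 2, and its lowest was 0.0145 FPKM, in sham library 2. These stood for about 20.8 and 3.84 fragments, and the groups overlapped. The authors' deposited table did not test it.

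Of the beta chains, Lamb1 was the more abundant. Its beta1 chain is part of most laminins of muscle and vessels. Lamb1 stood at 103.6, 104.8 and 119.9 FPKM in sham and 112.5, 144.6 and 128.2 FPKM in infarct libraries. The groups overlapped only through sham library 3, which was above infarct library 1. The means were 109.4 ± 9.08 and 128.4 ± 16.0 FPKM (SD, n = 3 each), with a log2 change of 0.22 (SE 0.12) and an unadjusted p of 0.101 (limma adjusted p = 1).

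Lamb2, whose beta2 chain is needed at the neuromuscular junction and in the kidney filter, had nearly the same mean in both groups. It stood at 55.4, 40.4 and 60.7 FPKM in sham and 37.6, 58.0 and 59.2 FPKM in infarct libraries. Sham library 2 and infarct library 1 were low and the other 4 libraries lay between 55.4 and 60.7 FPKM. The means were 52.2 ± 10.5 and 51.6 ± 12.1 FPKM (SD, n = 3 each), with a log2 change of -0.02 (SE 0.22; limma adjusted p = 1). The sign of this change turned when infarct library 1 was left out, to 0.18.

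Lamc1, whose gamma1 chain is shared by most laminins, varied least of the 10 genes, with a highest library only 1.28-fold above the lowest. It stood at 88.7, 87.6 and 98.1 FPKM in sham and 85.9, 110.1 and 104.0 FPKM in infarct libraries. Infarct library 1 was the lowest of all and the other infarct libraries were the highest, so the groups overlapped. The log2 change was 0.12 (SE 0.12; limma adjusted p = 1). For comparison, the highest over the lowest library was 1.40 for Lamb1 and Nid1, 1.56 for Lama4, 2.34 for Lama2, 2.74 for Nid2, 4.83 for Lama5 and 15.5 for Lama1.

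Nid1 encodes nidogen-1, the main linker between laminin and collagen IV, and lies on chromosome 13 (GRCm38, 13437551 to 13512269, plus strand). Its levels were 224.0, 211.2 and 189.3 FPKM in sham and 226.5, 265.1 and 234.1 FPKM in infarct libraries. All infarct libraries were above all sham libraries, with a gap of a few FPKM between sham library 1 and infarct library 1. Of the 8 tested genes, 1 had groups that did not overlap, Nid1. Over all tested genes 3.71% were separated in that direction and 4.1% in the other. The means were 208.2 ± 17.5 and 241.9 ± 20.5 FPKM (SD, n = 3 each), a ratio of 1.16. The log2 change was 0.22 (SE 0.11) and an unadjusted p of 0.0803 (limma adjusted p = 1), and the exact permutation p was 0.1.

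Nid2 encodes nidogen-2, a relative that binds the same partners. It stood at 23.4, 11.1 and 29.9 FPKM in sham and 13.6, 26.9 and 30.6 FPKM in infarct libraries. Sham library 2 and infarct library 1 were the lowest, and the groups overlapped across nearly their whole range. The log2 change was 0.16 (SE 0.41; limma adjusted p = 1), and it turned to -0.23 without sham library 2 and to -0.05 without infarct library 3. The table merges the locus of Nid2 with that of Rtraf, which stood at 58.8 to 65.6 FPKM, so reads of the shared stretch are uncertain.

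By the rule for likeness, the genes whose log2(FPKM + 1) followed Nid1 most closely over the 6 libraries included Mical1 (Pearson r = 0.987) and Fgf2 (r = 0.985), out of 11124 named genes. Fgf2, a growth factor stored in matrix, stood at 43.7, 38.7 and 32.1 FPKM in sham and 40.6, 58.1 and 46.5 FPKM in infarct libraries. The 6 libraries share the same scaling, and these values describe the closest of many genes.

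The make-up of each chain class does not depend on library scaling. Lama4 took 58.5 ± 2.54% of summed alpha-chain FPKM for sham and 56.9 ± 4.68% for infarct (SD, n = 3 each), and Lama2 took 35.0 ± 3.69% and 38.7 ± 7.98%. Lama5 took 6.38 ± 3.81% and 3.43 ± 2.42%. In infarct library 2 Lama2 reached 45.4% and Lama5 was down to 1.43%, while in sham library 2 Lama5 reached 10.8%. The Lama5 share difference, infarct minus sham, was -2.95 points, but -0.747 without sham library 2 and -1.95 without infarct library 2. The Lama2 share difference was 3.70 points, 8.13 without infarct library 1 and 0.373 without infarct library 2. Lama1 took 0.122 ± 0.00999% in sham and 0.891 ± 0.956% in infarct libraries, with 1.99% in infarct library 1.

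Lamb2 made up 32.1 ± 3.75% of beta-chain FPKM in sham and 28.4 ± 3.28% in infarct libraries. Nid2 made up 9.37 ± 4.32% and 8.81 ± 2.95% of nidogen FPKM. Summed nidogens over Lamc1 gave a ratio of 2.52 ± 0.278 for sham and 2.67 ± 0.126 for infarct (SD, n = 3 each). For the 6 shares and ratios tested, the exact two-sided permutation p ranged from 0.3 to 0.9 and the values adjusted over the 6 from 0.75 to 0.9. With 3 against 3 this p cannot go below 0.1, so no difference could have passed 0.05. Summed alpha chains over Lamc1 stood at 1.21 ± 0.162 and 1.25 ± 0.135, and summed beta chains over Lamc1 at 1.76 ± 0.0950 and 1.80 ± 0.0462. These last ratios were added after seeing the data and were not tested as part of the 6.

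**Figure D3:**
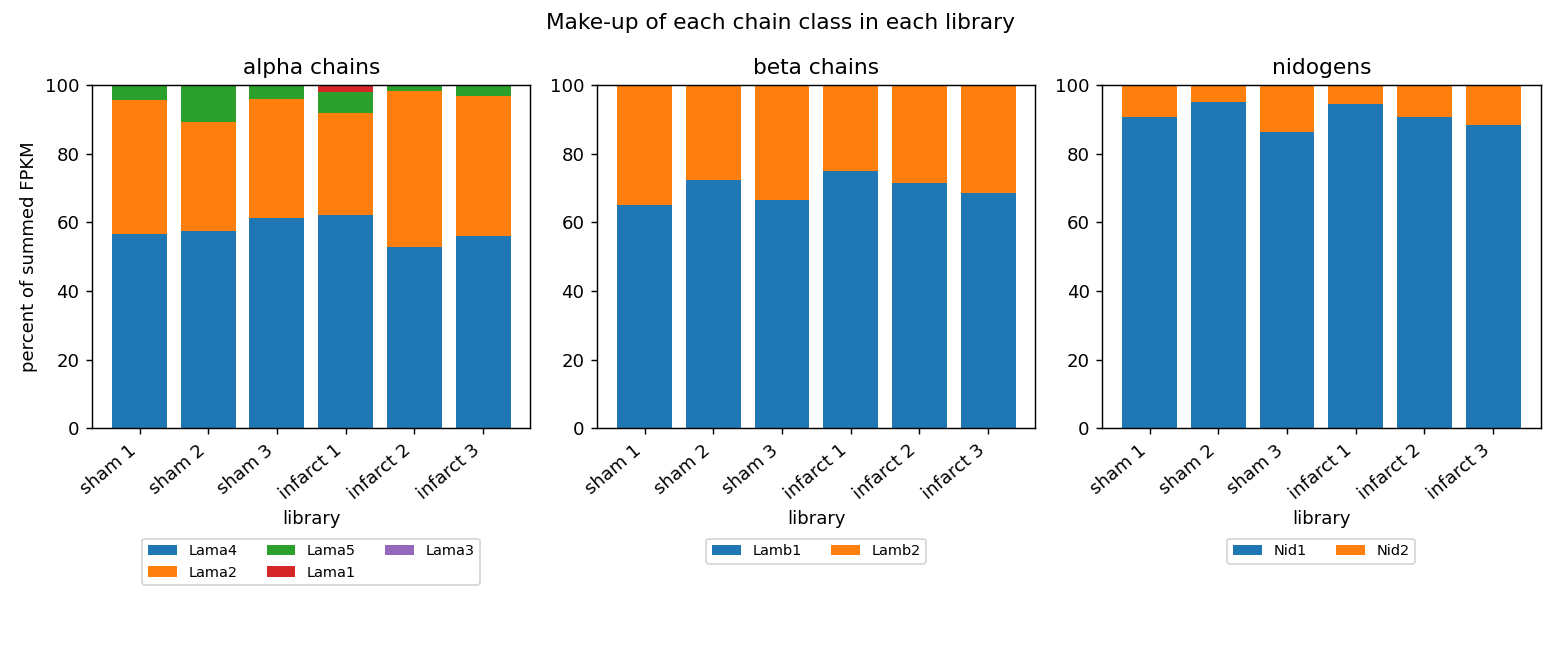
Share of summed FPKM (percent) taken by each alpha chain, each beta chain and each nidogen in the 6 libraries. Lama4 is the largest alpha-chain share in every library, from 52.8% to 62.0%, and Nid1 takes most of the nidogen signal.

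Several genes shared an order of libraries. Lama2, Lama4, Lamb2, Lamc1 and Nid2, 5 of the 8 tested, were lowest in sham library 2 among the sham and in infarct library 1 among the infarct libraries. Over all tested genes 25.4% had that pattern. Col4a1, Col4a2 and Col4a5, which encode collagen IV chains, and Sparc and Col3a1 had it too. Top2a, a gene of dividing cells, was highest in the same libraries, at 33.0, 55.7 and 23.0 FPKM in sham and 82.7, 29.9 and 37.4 FPKM in infarct libraries, and so was Mki67. The part of cell division in these levels was not tested. Nid1, Lamb1 and Lama5 did not have the pattern, and Lama5 was highest in both of those libraries.

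**Figure D4:**
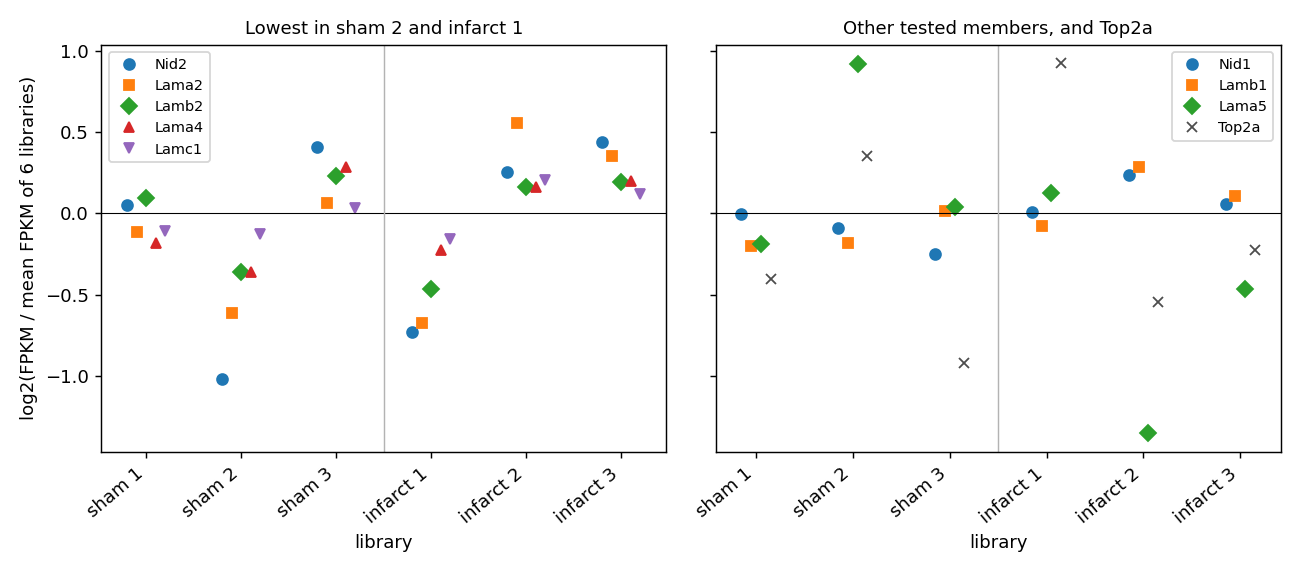
Level of the 8 tested genes and of Top2a in each library, as log2 of FPKM over the mean of the 6 libraries. The 5 genes of the left panel are lowest in sham library 2 and infarct library 1 of their groups, where Top2a and Lama5 in the right panel are highest.

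Promoter sequences are shown for 5 genes of these patterns, Lama2 and Lamb2 with the common low libraries and Lamb1, Nid1 and Lama5 without. They come from RefSeq on GRCm38.p6 and run 5′ to 3′ on the gene's strand, from 250 bases before to 50 bases after the start, for 5 of the 10 genes. The windows are chr10:27616893-27617192 (minus) for Lama2, chr9:108479612-108479911 (plus) for Lamb2, chr12:31265043-31265342 (plus) for Lamb1, chr13:13437352-13437651 (plus) for Nid1 and chr2:180225810-180226109 (minus) for Lama5. Capitals mark the GC box GGGCGG on either strand, so CCGCCC is capitalised too.
Lama2: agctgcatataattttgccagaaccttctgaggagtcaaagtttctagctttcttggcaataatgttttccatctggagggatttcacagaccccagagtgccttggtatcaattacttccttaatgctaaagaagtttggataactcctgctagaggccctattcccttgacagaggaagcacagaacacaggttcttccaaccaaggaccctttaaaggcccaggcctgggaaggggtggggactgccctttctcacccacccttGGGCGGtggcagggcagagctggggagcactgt
Lamb2: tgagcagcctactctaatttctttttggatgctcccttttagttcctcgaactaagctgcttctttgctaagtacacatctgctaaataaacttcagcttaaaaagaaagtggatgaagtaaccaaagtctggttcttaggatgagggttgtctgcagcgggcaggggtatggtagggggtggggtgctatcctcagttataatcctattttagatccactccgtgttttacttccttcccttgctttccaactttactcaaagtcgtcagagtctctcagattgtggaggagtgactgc
Lamb1: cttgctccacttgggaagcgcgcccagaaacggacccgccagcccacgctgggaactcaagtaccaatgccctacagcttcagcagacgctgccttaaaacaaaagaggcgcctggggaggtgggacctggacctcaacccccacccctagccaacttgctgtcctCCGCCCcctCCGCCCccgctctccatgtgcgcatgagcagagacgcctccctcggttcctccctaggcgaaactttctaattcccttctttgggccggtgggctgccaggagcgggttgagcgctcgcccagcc
Nid1: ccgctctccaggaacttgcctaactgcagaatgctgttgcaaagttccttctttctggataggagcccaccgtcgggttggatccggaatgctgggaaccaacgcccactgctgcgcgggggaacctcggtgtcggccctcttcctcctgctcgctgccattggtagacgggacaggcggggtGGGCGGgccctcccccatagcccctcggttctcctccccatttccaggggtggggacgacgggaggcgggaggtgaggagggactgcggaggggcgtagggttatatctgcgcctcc
Lama5: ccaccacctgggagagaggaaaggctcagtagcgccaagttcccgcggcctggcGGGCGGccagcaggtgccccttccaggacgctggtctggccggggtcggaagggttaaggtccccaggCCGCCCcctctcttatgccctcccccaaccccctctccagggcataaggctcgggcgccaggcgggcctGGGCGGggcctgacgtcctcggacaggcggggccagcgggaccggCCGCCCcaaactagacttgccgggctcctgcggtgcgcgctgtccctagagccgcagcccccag

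The Lama5 window held 4 GC boxes, Lamb1 held 2, Lama2 and Nid1 held 1 each and Lamb2 held 0. Of 32851 RefSeq promoter windows of the same length, 35.7% held at least 1. GC content was 72.7% for Lama5, 64.7% for Nid1, 63.7% for Lamb1, 50.3% for Lama2 and 44.0% for Lamb2, beside a median of 52.7%. The number of CpG was 24 for Lama5, 20 for Nid1, 18 for Lamb1, 4 for Lamb2 and 1 for Lama2, beside a median of 7. The Lama2 and Lamb2 windows held fewer CpG than the median and the other 3 held more. No window is shown for Lama4, Lamc1 and Nid2, which also had the common low libraries. Whether CpG number goes with the order of libraries was not tested. The Lama2 window lies inside the annotated gene, whose outer end on the minus strand is at 27619758. It may therefore not describe the outermost start. TATAAA, in 13.6% of windows on either strand, was in none of the 5. A match describes the letters of these windows and nothing about binding.

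Of the laminin chains outside the 10 genes, Lamb3 stood below 1 FPKM in every library, with means of 0.344 and 0.475 FPKM, and Lamc3 below 0.05 FPKM.

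Partners of laminin in the basement membrane were abundant and limma called 0 of the 18 tested, of 22 listed. Their changes were positive in 8 and negative in 10, with a median of -0.07. Sparc, a collagen-binding matrix protein, stood at 2345 ± 647 and 2489 ± 683 FPKM in sham and infarct libraries (SD, n = 3 each), and the proteoglycan Bgn at 1997 ± 344 and 2033 ± 335 FPKM. Ntn4, a netrin that binds the gamma1 chain, was the 1 of the 18 tested genes with separated groups. Over all tested genes 4.1% were separated in that direction. Ntn4 stood at 21.1, 17.9 and 25.3 FPKM in sham against 12.4, 15.4 and 17.2 FPKM in infarct libraries. All 3 infarct values were below the lowest sham value, with a log2 change of -0.49 (SE 0.17) and an unadjusted p of 0.0222 (limma adjusted p = 1). Tinagl1, a laminin-binding matrix protein, had a log2 change of -0.38 (SE 0.19) and Fbln1, a fibulin, one of 0.31 (SE 0.17), each with a limma adjusted p of 1. The authors' deposited table tested 21 of these genes and marks 1, Col4a4, as significantly lower, with a q-value of 0.00178. Its background was 1.19% lower. Col4a4 did not pass the filter for limma. It stood at 1.32, 0.491 and 1.58 FPKM in sham and 0.358, 0.421 and 0.631 FPKM in infarct libraries, so the groups overlapped.

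The list of laminin receptors also holds genes of their complexes, such as Dmd, and its counts cover both. Limma called 0 of 20 tested, of 22 listed, with 6 positive and 14 negative changes and a median of -0.06. Itgb1, the beta subunit of most laminin-binding integrins, stood at 454.5 ± 30.8 and 447.7 ± 61.5 FPKM (SD, n = 3 each), and Rpsa, a ribosomal protein also described as a laminin receptor, at 652.8 ± 67.6 and 653.5 ± 45.7 FPKM. Itga6, a laminin-binding integrin alpha subunit, had a log2 change of -0.42 (SE 0.16) and an unadjusted p of 0.0347 (limma adjusted p = 1). Its levels were 19.1, 27.5 and 24.0 FPKM in sham and 15.8, 20.1 and 16.0 FPKM in infarct libraries, and sham library 1 lay below infarct library 2. Sdc1, a syndecan, had a log2 change of 0.30 (SE 0.14) and Dmd, dystrophin, one of -0.53 (SE 0.26), each with a limma adjusted p of 1. The authors' deposited table tested 22 genes of this list and marks 1, Itgb4, as significantly lower, with a q-value of 0.00455. Its background was 1.19% lower. Itgb4 did not pass the filter for limma, and its groups overlapped.

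The enzymes that put the laminin-binding sugar on dystroglycan gave no call either. Of 13 listed, 11 were in the table and 10 were tested. Limma called 0, with 6 positive and 4 negative changes and a median of 0.01. Pomgnt1, which extends O-linked mannose, stood at 22.9 ± 0.225 and 23.2 ± 2.62 FPKM (SD, n = 3 each). The smallest unadjusted p belonged to Pomt2 (log2 change 0.15), Pomt1 (-0.17) and Pomgnt2 (0.06), an O-mannosyltransferase pair and a further transferase, each with a limma adjusted p of 1.

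**Figure D5:**
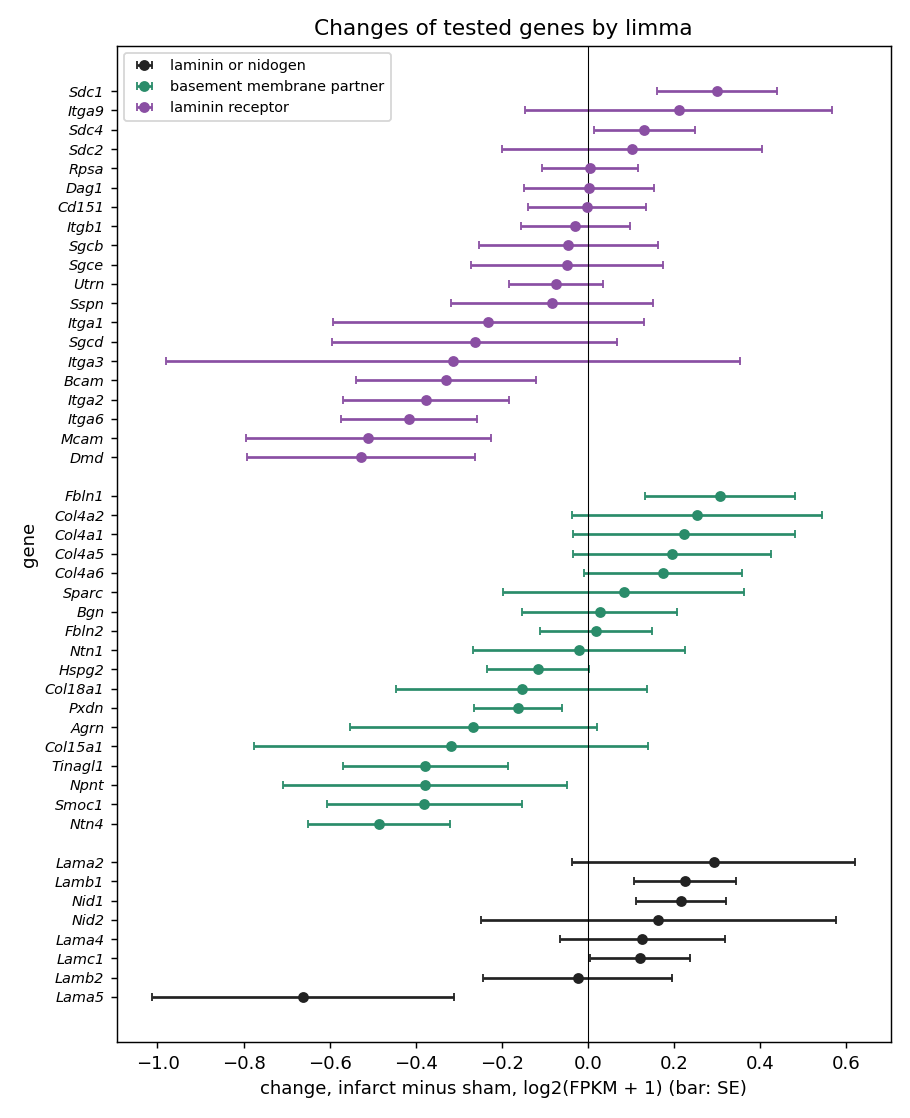
Log2 change, infarct minus sham, of the 8 tested laminin and nidogen genes, with the SE from limma as a bar. The tested genes of the basement membrane partner list and the laminin receptor list are drawn too. None passes an adjusted p under 0.05, and Lama5 at -0.66 is the lowest of those drawn.

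Fibroblast markers differed widely in level, and 10 of 11 were tested. Col3a1 stood at 440.4 to 1119 FPKM and Col1a1 at 650.3 to 1041 FPKM over the 6 libraries. Lum stood at 0.0203 to 0.550 FPKM. Of the 10 changes, 7 were positive and 3 negative, and limma called 0. Dcn and Thy1, 2 of the 10, had all infarct below all sham libraries, beside 4.1% of all tested genes. The authors' deposited table marks 1 of the 11, Dcn, at 13.7 to 34.4 FPKM, as significantly lower, with a q-value of 0.0289. Its background was 1.19% lower. Summed levels of the fibroblast list were 2302 to 3707 FPKM in sham and 2616 to 3908 FPKM in infarct libraries. Pericyte and smooth muscle markers, 9 of 12 tested and led by Acta2 and Tagln, summed to 625.9 to 939.3 FPKM in sham and 641.9 to 987.8 FPKM in infarct libraries. Cardiomyocyte markers were near 0 apart from Atp2a2 and Tnnt2, 2 of 12 tested, and Myh6, Nppa and Myl7 were at 0 in every library. Of 10 macrophage markers 2 were tested, Lyz2 and Cd14, and Adgre1 and C1qa were at 0 in every library. Schwann cell and neural markers, 3 of 10 tested and led by Ncam1 and S100b, summed to 16.4 to 22.6 FPKM in sham and 15.7 to 24.5 FPKM in infarct libraries. Epithelial and mesothelial markers, 5 of 12 tested and led by Upk3b and Upk1b, summed to 20.4 to 56.6 and 13.5 to 48.1 FPKM, with Krt14 at 0 in every library. The authors' deposited table marks Des, of 10 pericyte and smooth muscle genes it tested, as higher (q-value 0.00178). Tnnt2, of 3 cardiomyocyte genes, is marked as lower (q-value 0.00695). Of 7 epithelial and mesothelial genes, Krt18 is marked as lower and Krt19 as higher (q-value 0.00178 each). The background was 0.469% higher and 1.19% lower. Limma called 0 in each of these lists.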

How the data were processed

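Libraries were made from total RNA freed of ribosomal RNA and were read in a directional manner from both ends, per the labels' protocols. The submitters' processing notes list, without roles, Cuffdiff, Cufflinks, HISAT2, SAMtools, StringTie, Trimmomatic 0.36 and the build GRCm38. Which annotation version was used is not given in the sources used here. FPKM values per library were deposited by the authors, scaled to transcript length and library total. Per the file headers, the table also holds the authors' group FPKM values, p-values and q-values. Library means were offset from these group values by a median of -2.46% in each group.

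Of 53460 entries, 14 were listed by the authors as too abundant to estimate, none of them a member, and were left out. Entries of 110 symbols were summed. Depth was estimated from 4881 single-transcript genes of 2 to 12 kb, with 200 bases taken off each length. On that scale 97.05% to 98.3% of values under 10 fragments lay within 0.1 of a whole number.

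Differences were tested with limma 3.58.1 (R 4.3.3) with an intensity trend on log2(FPKM + 1), two-sided, over the 12720 genes that reached 1 FPKM in 3 or more of the 6 libraries, with Benjamini-Hochberg adjustment and a threshold of 0.05. This scale understates changes of low genes. The fit was tested on simulated data. Shares and ratios used the exact permutation test, which cannot go below 0.1 for 3 against 3. The rest used scipy 1.17.1, pandas 2.3.3, numpy 2.4.6 and matplotlib 3.10.9 under Python 3.11.15.

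All 10 members are named. From each related list the 3 genes with the smallest unadjusted p and the 2 most abundant are named, from each cell type list the 2 most abundant, and for Nid1 the 3 genes most alike in pattern. Some genes that the rule names are not reported here. Genes named beyond it (Ntn4's separation, Itga2, Col4a4, Itgb4, Mmrn2, Col4a5, Lum, Dcn, Thy1 and the sex-linked and cell division genes) were chosen after their values were seen. The same holds for Tek, Tie1, Vwf, Robo4, Sox18, Erg, Des, Krt18 and Krt19. Members and lists were chosen with earlier results of these data known. Alternatives were other pseudocounts, filters, scalings, no trend and leaving out each library. Leaving out sham library 2 and infarct library 1 together, and no filter with a pseudocount of 0.1 FPKM, were chosen after seeing the data.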

Additional observations from a re-analysis of the deposited data

How the results depend on the processing

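No member was called under any of the 15 alternatives of the fit, and limma's adjusted p of the 8 tested members was never under 0.751. Of 120 changes compared, 113 kept their direction and 7 did not. Lamb2 (main -0.02) ranged from -0.19 to 0.18 with 1 library left out, being 0.18 without infarct library 1, 0.03 without sham library 1 and 0.09 without sham library 3, and was 0.01 without sham library 2 and infarct library 1. Nid2 ranged from -0.23 to 0.50, being -0.23 without sham library 2 and -0.05 without infarct library 3. Lama4 ranged from -0.00765, without sham library 2, to 0.31. Without a change of sign, Lama2 ranged from 0.06 to 0.66 and Lama5 from -0.93 to -0.36. The Lama4 share difference ranged from -4.58 (without sham library 2 and infarct library 1) or -4.08 (without infarct library 1) to 0.533 points with libraries left out, and the Nid2 share difference from -2.75 to 1.57 points, being 1.00 without infarct library 1. The share differences of Lama2 (0.373 to 8.13 points), Lama5 (-4.29 to -0.747) and Lamb2 (-5.81 to -1.99) and that of the nidogen to gamma1 ratio (0.00074 to 0.278) kept their sign. The cause of these turns, other than fewer samples, was not tested.

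Genes called over the whole table were 3, against 1 with no filter, 0 without sham library 2 and infarct library 1, and 1 to 14 with 1 library left out, the 14 being without sham library 1. Called genes of the related and marker lists were 1 (Mmrn2), against 0 with no filter, 0 with no filter and a pseudocount of 0.1 FPKM, 0 with a pseudocount of 0.1 FPKM, 0 with 0.01 FPKM, 0 without sham library 2 and infarct library 1, and 0 to 4 with 1 library left out. No filter tested 25311 genes. The log2 difference of Lama1 was 0.70, 1.90 with a pseudocount of 0.1 FPKM and 2.42 with 0.01 FPKM. Depth limits Lama3, at 3.83 to 20.8 fragments, and a group size of 3 limits all tests. No paired analysis was made because the labels give no pairing of sham and infarct libraries. The infarct columns carry numbers other than those of the infarct samples.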

Other observations

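Some laminin receptor and keratin genes varied widely between libraries of the same group, and they are given as values without a test. Itga3, the alpha subunit of an integrin that binds alpha5 laminin, stood at 3.07, 14.1 and 7.62 FPKM in sham and 15.5, 3.35 and 2.83 FPKM in infarct libraries 1, 2 and 3. It was highest in sham library 2 and infarct library 1, the libraries in which Lama5 was also highest in each group. Itgb4, an integrin subunit of epithelial attachment sites, stood at 0.448, 4.41 and 1.97 FPKM in sham and 0.935, 0.389 and 0.262 FPKM in infarct libraries. The keratin Krt18 stood at 1.44, 32.9 and 4.08 FPKM in sham and 2.31, 0.273 and 0.0692 FPKM in infarct libraries. Krt19 stood at 3.49, 5.52 and 0.951 FPKM in sham and 28.2, 2.13 and 1.20 FPKM in infarct libraries. All 4 genes were highest in sham library 2 among the sham and in infarct library 1 among the infarct libraries. Of the epithelial and mesothelial list, Msln had this pattern too, and Upk3b, Upk1b, Wt1, Lrrn4 and Krt8 did not. The share of all tested genes with this pattern was not counted. The genes named here were chosen after their values were seen.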
